A study of Mus musculus with 32 samples.

Results

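The genes described here encode lysyl oxidases and other proteins that modify or mature collagen. They were chosen by name, as 10 symbols (Lox, Loxl1, Loxl2, Loxl3, Plod1, Plod2, Plod3, Serpinh1, Bmp1os and Pcolce), and the choice used one measured value, the rise of Lox with OGN in fibroblasts. For that reason, OGN against vehicle in fibroblasts is described below for these genes without p values, and nothing is read from which of them passed the threshold there. Of the 10 symbols, 9 were among the 11818 genes of the count table, and Bmp1os was not analysed here. All 9 passed the filter on low counts in every comparison, and their lowest count in any library was between 10 for Loxl2 and 569 for Serpinh1.

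CD45-/CD31-/Epcam+ cells, the epithelial fraction of adult C57BL/6J mouse lung, were grown in Matrigel together with a mouse lung fibroblast line, CCL206, treated with mitomycin C so that it no longer divided. The cultures received vehicle, extracellular vesicles (EVs) or soluble factors (SFs) from MRC5 human lung fibroblasts, or recombinant human osteoglycin (OGN, 10 µg/mL), for 72 h. Each culture was then separated with Epcam beads into Epcam+ cells and a CCL206 fraction, which is whatever the beads did not hold. Epcam+ cells of 4 mice were used in all 4 conditions, so that 8 groups of 4 libraries were sequenced. The CCL206 cells are 1 line throughout, and in that fraction the mouse number names the culture and not the donor of the fibroblasts.

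Fibrillar collagen is modified inside the cell before it is secreted. Lysyl hydroxylases (Plod1, Plod2 and Plod3) hydroxylate lysines of the procollagen chain, with Plod2 acting on the telopeptides. Plod3 also takes part in adding sugars to hydroxylysine. Serpinh1 (HSP47) is the collagen chaperone of the endoplasmic reticulum. Outside the cell, Pcolce enhances the removal of the C-terminal propeptide by Bmp1, after which the copper enzymes Lox, Loxl1, Loxl2 and Loxl3 oxidise lysines and so start the cross-links of collagen and elastin. Lox and Plod2 are textbook targets of the hypoxia-inducible factor HIF-1, which binds DNA at the letters ACGTG or GCGTG.

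Promoters were therefore read for these letters, on both strands. RefSeq promoters on GRCm38.p6, from 250 bases before to 50 after the start of the gene, were matched for 4 of the 9 genes. These were Plod1, Plod3, Serpinh1 and Pcolce, so the promoters of Lox and Plod2 were not read. Those of Plod1, Plod3 and Serpinh1 are shown, because with OGN in fibroblasts these genes had log2 fold changes of 0.69, 0.22 and 0.00. Capitals mark each match, and CACGT and CACGC are the matches on the other strand. The letters CACGTG, if present, would count as a match on both strands.
Plod1 (chr4:147936727-147937026, minus strand): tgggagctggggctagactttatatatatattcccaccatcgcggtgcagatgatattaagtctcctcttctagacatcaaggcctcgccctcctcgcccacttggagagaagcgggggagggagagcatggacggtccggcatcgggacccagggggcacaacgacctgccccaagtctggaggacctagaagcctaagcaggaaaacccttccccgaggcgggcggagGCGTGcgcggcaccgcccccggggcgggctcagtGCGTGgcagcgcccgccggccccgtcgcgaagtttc
Plod3 (chr5:136986769-136987068, plus strand): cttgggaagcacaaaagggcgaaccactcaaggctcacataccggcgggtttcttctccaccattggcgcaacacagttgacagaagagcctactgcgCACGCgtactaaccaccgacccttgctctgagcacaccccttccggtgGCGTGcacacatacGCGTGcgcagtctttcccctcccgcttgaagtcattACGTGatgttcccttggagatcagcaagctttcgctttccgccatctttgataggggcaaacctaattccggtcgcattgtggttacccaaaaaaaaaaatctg
Serpinh1 (chr7:99353190-99353489, minus strand): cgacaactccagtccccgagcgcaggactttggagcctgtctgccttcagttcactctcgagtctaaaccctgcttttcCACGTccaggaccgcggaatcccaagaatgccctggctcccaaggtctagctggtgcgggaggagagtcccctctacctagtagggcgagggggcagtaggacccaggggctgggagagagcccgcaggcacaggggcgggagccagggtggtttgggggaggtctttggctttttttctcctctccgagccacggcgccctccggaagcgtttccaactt
Plod1 had 2 matches, at positions -20 and 15 from the start, Plod3 had 4 and Serpinh1 had 1. Pcolce also had 1 match. Outside the 9 genes, the promoters of P4ha1 and P4ha2 had 3 and 4 matches. Such matches are frequent: 62.9% of the 11756 promoters matched to genes of the count table had at least 1, and 25.7% had ACGTG, so the matches are a description of these promoters.

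Both fractions were checked against markers of their labelled identity. The 9 epithelial markers (among them Epcam, Cdh1 and Sftpc) together had 9886 to 15730 CPM (counts scaled to a common library size) in the Epcam+ libraries and 1324 to 4373 in the CCL206 libraries. The 9 fibroblast markers (among them Dcn, Lum and Col1a2) had 7874 to 13338 CPM in CCL206 and 2032 to 3741 in Epcam+ libraries, so markers of each fraction were also counted in the other. Of leukocyte markers, Cd68, Lyz2 and Cd14 were counted and Ptprc and Tyrobp were not in the table, nor were the 4 endothelial markers. Genes with 0 counts in any library are missing from the table, so silent genes could not be seen. Depth was 1805914 to 17675454 counts per library. All CPM values below were normalized by TMM over the 32 libraries, and errors are SD over 4 libraries or the standard error (SE) of a log2 fold change.

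At baseline the genes were expressed mainly in the fibroblasts, and Pcolce and Serpinh1 were the most abundant. Per kilobase of transcript in vehicle-treated CCL206 cells, the level was 590 ± 40 CPM for Pcolce, 312 ± 28.3 for Serpinh1 and 111 ± 4.74 for Plod3 (SD, n = 4). The lysyl oxidases followed at 47.9 ± 5.37 for Loxl1, 29.7 ± 1.61 for Loxl3, 16.9 ± 1.21 for Lox and 5.34 ± 0.628 for Loxl2. Plod2 (23.7 ± 2.32) lay between Loxl3 and Lox, and Plod1 (12.5 ± 0.323) between Lox and Loxl2. No neighbours in this order overlapped. On this scale Lox was thus the third of the 4 lysyl oxidases in vehicle-treated fibroblasts, below Loxl1 and Loxl3. In vehicle-treated Epcam+ cells Pcolce (161 ± 18.7), Serpinh1 (89.7 ± 13.4), Plod3 (35.4 ± 0.401) and Loxl1 (11.4 ± 2.47) kept the top ranks, and Loxl2 (1.76 ± 1.05) the lowest. There Plod2 and Lox overlapped, as did Lox and Loxl3, and Loxl3 and Plod1.

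**Figure D1:**
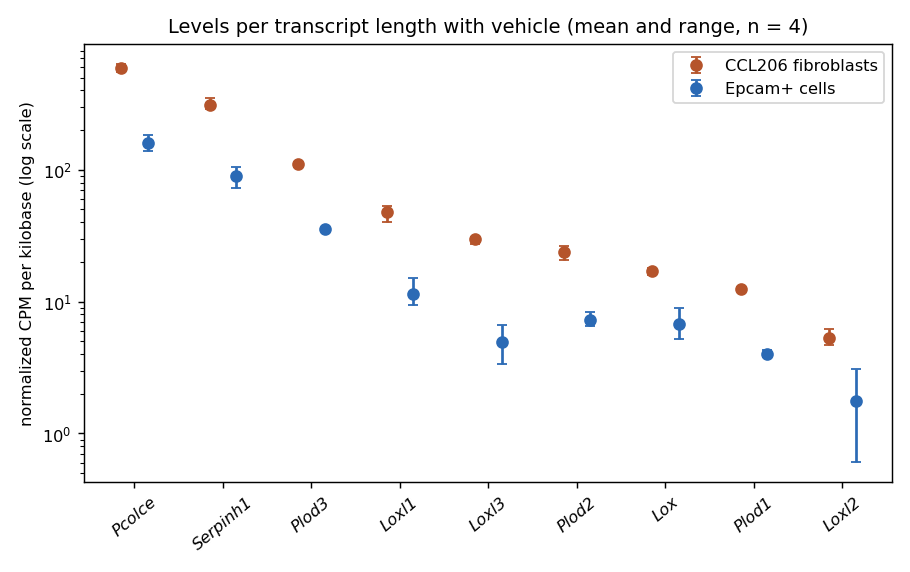
Level of each gene with vehicle, in normalized CPM per kilobase of transcript (log axis), for CCL206 fibroblasts and Epcam+ cells. Points are means and bars the range of 4 libraries. Pcolce had the highest mean level (590 in CCL206) and Loxl2 the lowest (5.34 in CCL206), and CCL206 lay above Epcam+ for every gene.

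All 9 genes were lower in Epcam+ cells than in CCL206 cells of the same vehicle-treated cultures. In this comparison of fractions, 35.8% of all genes tested were lower at an adjusted p under 0.05 (edgeR's quasi-likelihood test with Benjamini-Hochberg adjustment over all genes). Loxl3 had the widest gap, with a log2 difference of -2.60 (SE 0.15, adjusted p = 5.94e-08), and Lox the narrowest, at -1.34 (SE 0.11, adjusted p = 1.26e-06). Loxl1 differed by -2.09, Pcolce by -1.88, Serpinh1 by -1.81, Plod2 by -1.73, Plod1 by -1.66, Plod3 by -1.64 and Loxl2 by -1.62. The collagens they act on showed the same direction, with Col1a1 at -1.83 and Col3a1 at -2.11. Bmp1, the procollagen C-proteinase, was lower by less, at -0.71 (SE 0.09, adjusted p = 2.57e-05). Of 38 other genes of collagen synthesis that were tested, 31 were lower and 6 higher in Epcam+ cells. These 38 include 5 genes of copper delivery, which were 4 of the 6 higher.

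Expressed as a share of the CCL206 level of the same culture, the 9 genes had a median of 30.3% in Epcam+ cells with vehicle (16.8% to 39.9%). The 9 fibroblast markers had a median of 19.7% (15.1% to 31.0%). The share of Lox was 39.9% ± 7.23 and that of Loxl3 was 16.8% ± 5.64 (SD, n = 4). The ranges of both sets overlapped. How much of the signal of either came from fibroblasts left in the fraction was not tested.

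Lox had the largest increase of the 9 genes with OGN in CCL206 cells. Its gene lies on chromosome 18, from 52516060 to 52529867 on GRCm38.p6. It had 76.5, 75.5, 85.5 and 86.4 CPM with vehicle (mice 1 to 4) and 197.0, 222.4, 236.9 and 236.3 CPM with OGN. Every OGN library was above every other library of the series for this gene. The fold change was 2.76 (log2 1.46, SE 0.13), and the 4 cultures gave log2 ratios of 1.36, 1.56, 1.47 and 1.45. The order of the 8 groups was CCL206 with OGN (223 ± 18.7), SFs (117 ± 20.9), EVs (89.9 ± 25.2) and vehicle (81.0 ± 5.77), then Epcam+ cells with OGN (52.9 ± 4.28), SFs (45.7 ± 7.62), EVs (43.6 ± 7.27) and vehicle (32.6 ± 8.08). In that order, ranges were apart between the first 2 groups and between CCL206 vehicle and Epcam+ OGN, and all other neighbours overlapped.

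**Figure D2:**
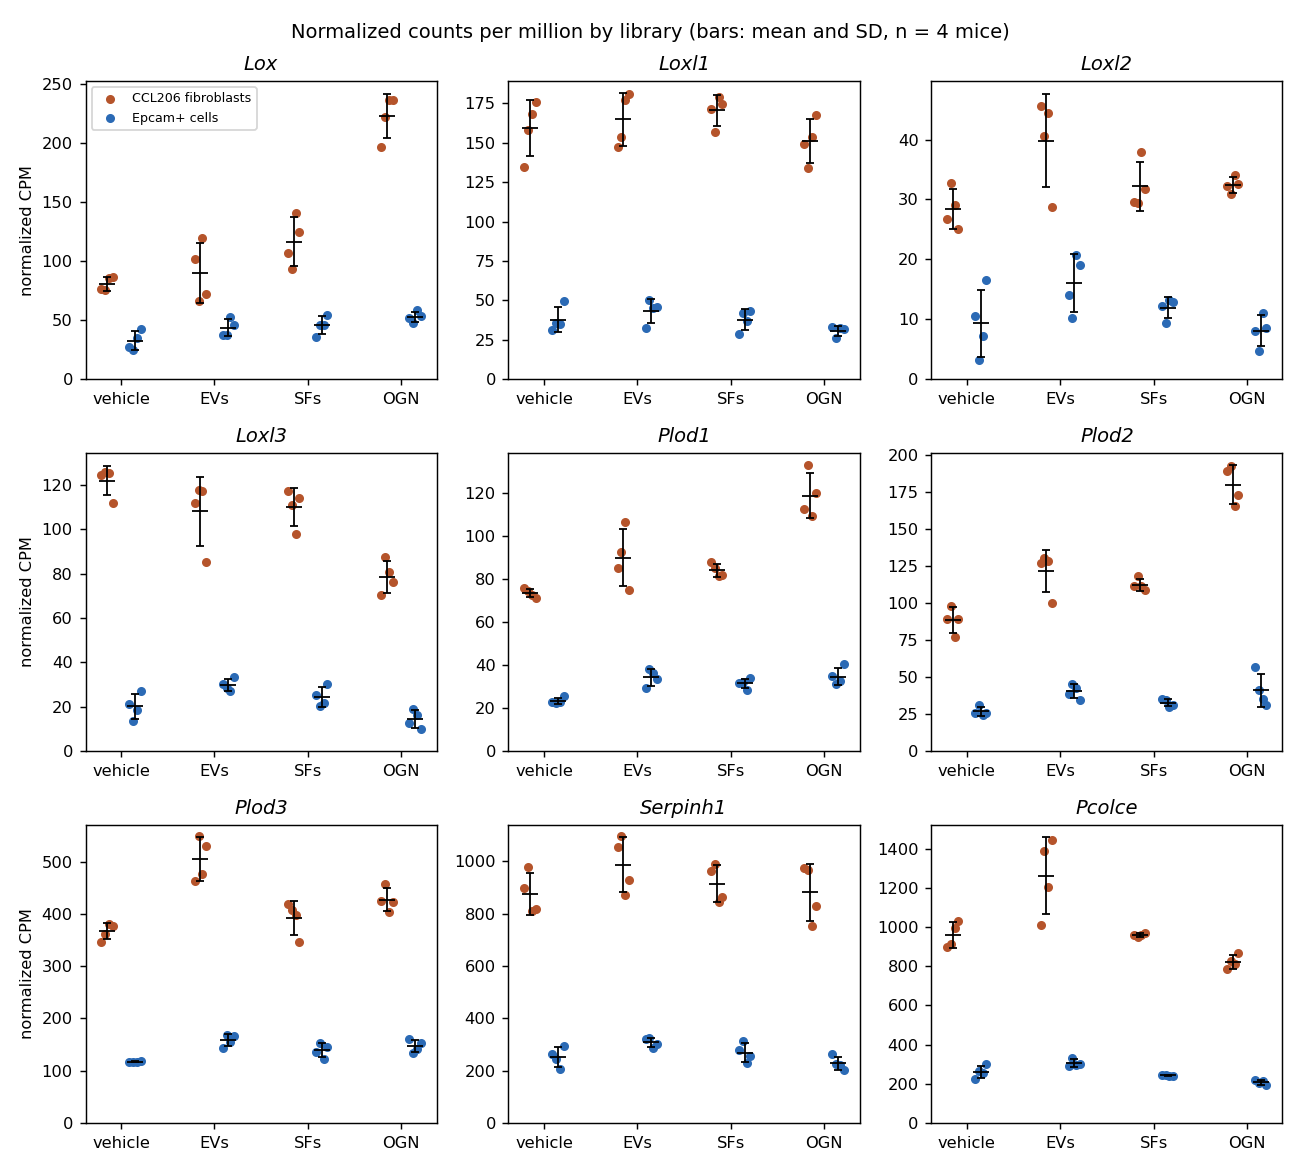
Normalized CPM (y axis, from 0) of the 9 genes in every library, by treatment (x axis), for CCL206 fibroblasts and Epcam+ cells. Points are libraries, and bars give the mean and SD of 4 libraries. Lox in CCL206 cells reached 197.0 to 236.9 with OGN against 75.5 to 86.4 with vehicle, whereas Serpinh1 and Loxl1 overlapped between the same groups.

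Other lysyl oxidases did not follow Lox. Loxl3 had 124.7, 125.8, 125.2 and 112.0 CPM with vehicle and 70.3, 87.5, 80.6 and 76.2 CPM with OGN in CCL206 cells. The 2 groups did not overlap, and OGN left 0.645 of the vehicle level (log2 -0.63, SE 0.10). Loxl1 had 134.9 to 176.0 CPM with vehicle and 133.8 to 167.8 with OGN (log2 -0.08, SE 0.08). Loxl2 had at most 32.8 CPM with vehicle and 30.9 to 34.1 with OGN (log2 0.19, SE 0.13). The ranges of these 2 genes overlapped. Per kilobase of transcript, Lox had 46.7 ± 3.91 CPM and Loxl3 19.2 ± 1.77 with OGN, the reverse of their order with vehicle.

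Among the lysyl hydroxylases, Plod2 and Plod1 were the next largest increases. Plod2 had 88.9, 98.1, 77.1 and 89.4 CPM with vehicle and 188.8, 192.5, 165.1 and 173.1 CPM with OGN. The fold was 2.03 (log2 1.02, SE 0.09), with log2 ratios of 0.95 to 1.10 in the 4 cultures. Plod1 had 75.8, 74.4, 72.7 and 71.4 CPM with vehicle and 112.6, 133.1, 109.3 and 119.9 CPM with OGN, a fold of 1.61 (log2 0.69, SE 0.10). For both genes every OGN library was above every vehicle library. Plod3, the most abundant of the family, differed by little, with 346.6 to 380.9 CPM with vehicle, 404.2 to 457.0 with OGN and a log2 fold change of 0.22. Its groups did not overlap.

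The chaperone and the propeptide enhancer had no comparable increase with OGN in fibroblasts. Serpinh1 had 811.6 to 980.2 CPM with vehicle and 753.4 to 975.9 with OGN (log2 0.00, SE 0.08). Pcolce had 897.0 to 1033.0 CPM with vehicle and 783.7 to 869.1 with OGN, without overlap and with a log2 fold change of -0.22 (SE 0.10). In the fit over all genes, 2.7% were called higher and 1.86% lower. Because the choice of genes used this contrast, no calls are given in it for the genes described here.

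Other genes of the pathway were mostly near the vehicle level. Of 38 tested, 2 were called higher and 0 lower, with a median log2 fold change of 0.04 against -0.01 over all genes. Both were prolyl 4-hydroxylase subunits, which hydroxylate prolines of procollagen: P4ha2 rose 2.12-fold (log2 1.08, SE 0.09) and P4ha1 rose 1.23-fold (log2 0.30, SE 0.08). The substrates themselves were not called, and Col1a1 (0.04), Col1a2 (-0.03), Col3a1 (-0.02) and Col5a1 (-0.02) lay close to 0 on the log2 scale. Bmp1 was also not called, at 0.12 (SE 0.08).

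Genes of the HIF-1 response were higher with OGN in the same libraries. Of 17 tested, 12 were called higher and 0 lower in CCL206 cells, with a median log2 fold change of 0.77. Ankrd37 (log2 1.57, SE 0.20), the pro-mitophagy gene Bnip3 (1.29, SE 0.15), the glucose transporter Slc2a1 (1.27, SE 0.09) and the oxidase of the endoplasmic reticulum Ero1a (1.15, SE 0.13) were the highest. Egln1, which hydroxylates HIF-1α itself, had 0.97 (SE 0.10), whereas Adm (0.05), Ndrg1 (0.25), Pfkfb3 (-0.32) and Bhlhe40 (-0.30) of the same list were not called. Whether HIF-1 had a part in the change of Lox or Plod2 was not tested. The summed leukocyte markers were also higher in these libraries, at 77 to 149 CPM with vehicle and 196 to 341 with OGN. Of these markers 2 of 3 were called higher, with a median log2 of 1.03. The means of Lyz2 and Cd14 rose by 75.9 and 71.6 CPM and that of Cd68 by 0.937 CPM. The part of these markers in the results was not tested.

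**Figure D3:**
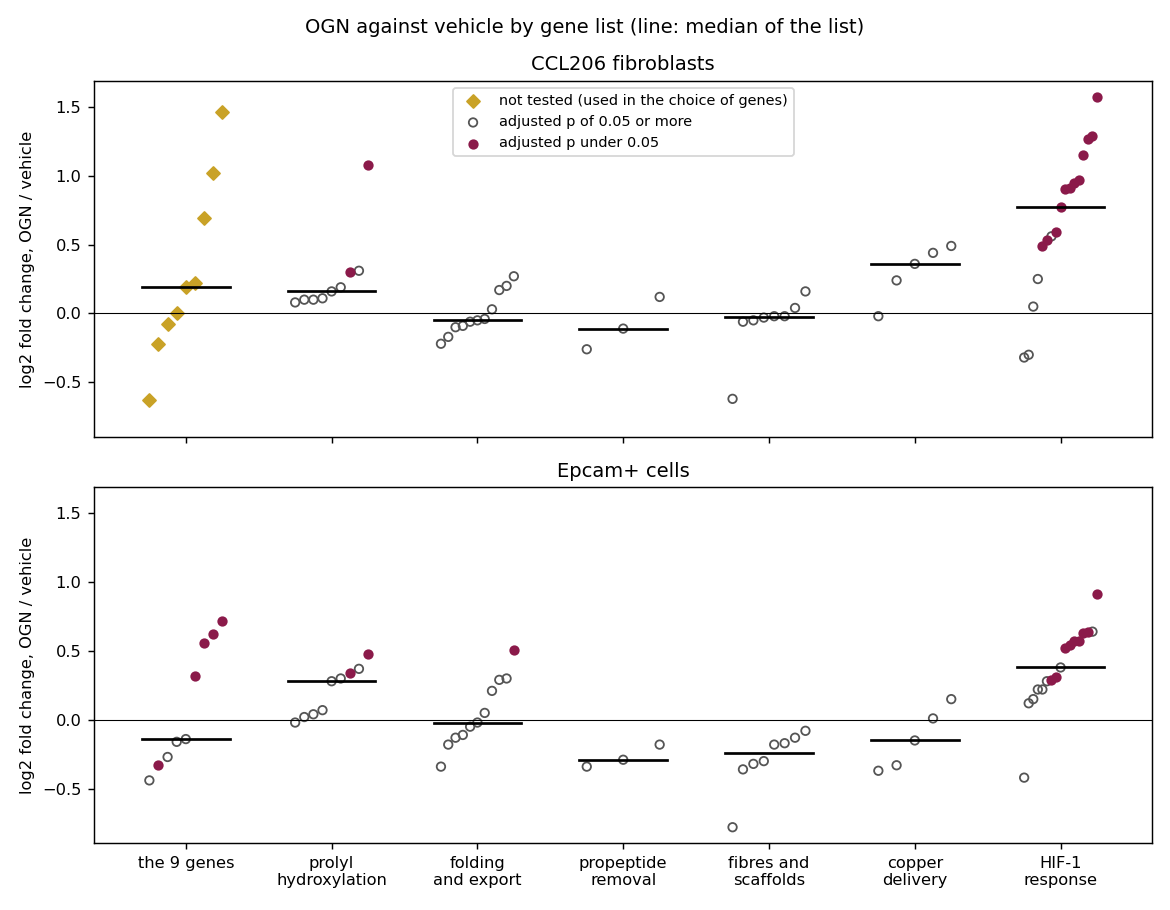
Log2 fold change of OGN against vehicle (y axis) by gene list (x axis) in CCL206 fibroblasts and Epcam+ cells. Each point is a gene, filled where its adjusted p was under 0.05 and a diamond where no test was made, and lines are list medians. The HIF-1 list has a median of 0.77 in CCL206 and 0.38 in Epcam+ cells, and the fibre and scaffold genes have medians of -0.02 and -0.24.

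In Epcam+ cells exposed to OGN, Lox, Plod1, Plod2 and Plod3 rose and Pcolce fell. These 4 of 9 compare with 1.48% of all genes called higher, and the 1 of 9 with 1.22% called lower. Lox had 27.1, 25.1, 35.4 and 42.7 CPM with vehicle and 52.1, 47.9, 58.3 and 53.3 CPM with OGN, without overlap. Its fold change was 1.65 (log2 0.72, SE 0.12, adjusted p = 0.000632), and it was higher in 4 of 4 mice. Lox was called under 12 of 12 alternative settings, with adjusted p between 1.23e-06 and 0.0372. The Epcam+ libraries come from the same cultures as the CCL206 libraries used in the choice of genes, and they also held fibroblast markers. The test of Lox here is therefore not independent of that choice.

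Plod2 had 25.6, 31.2, 24.5 and 25.9 CPM with vehicle and 56.7, 41.5, 35.1 and 30.9 CPM with OGN in Epcam+ cells. Mouse 1 had the largest response and the ranges overlapped by a small margin (fold 1.54, log2 0.62, SE 0.14, adjusted p = 0.0122). Plod1 had 22.5 to 25.4 CPM with vehicle and 31.0 to 40.4 with OGN (fold 1.47, log2 0.56, SE 0.13, adjusted p = 0.0139). Plod3 had 116.5 to 119.4 CPM with vehicle and 132.8 to 160.8 with OGN (fold 1.25, log2 0.32, SE 0.08, adjusted p = 0.0321). Pcolce had 225.3 to 299.3 CPM with vehicle and 191.8 to 218.9 with OGN, which was 0.797 of the vehicle level (log2 -0.33, SE 0.08, adjusted p = 0.0257). Each of these 4 genes moved the same way in 4 of 4 mice.

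No call was made for Loxl1 (log2 -0.27, adjusted p = 0.415), Loxl2 (-0.16, adjusted p = 0.855), Loxl3 (-0.44, adjusted p = 0.336) and Serpinh1 (-0.14, adjusted p = 0.56). Loxl3 was lower in 3 of 4 mice and higher in mouse 2. The number of calls depended on the libraries used: Lox alone was called with only the 8 libraries compared or without mouse 3, Lox and Pcolce without mouse 1, and Lox and Plod2 without mouse 4. Without the EV-treated libraries 3 genes (Lox, Plod1 and Plod2) were called.

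Of the other genes of collagen synthesis, 3 were called higher in Epcam+ cells with OGN and 0 lower. They were P4ha2 (log2 0.48, SE 0.09, adjusted p = 0.00151), P4ha1 (0.34, SE 0.08, adjusted p = 0.0276) and Creb3l1 (0.51, SE 0.12, adjusted p = 0.0165), the last a transcription factor of the secretory pathway. The 8 fibre and scaffold genes tested had 0 calls by edgeR, all with negative estimates and a median of -0.24. At an unadjusted p under 0.05 there were 4 of these 8, and 1540 of all 11716 genes. Of the HIF-1 response, 9 of 17 genes were higher and 0 lower, led by Bnip3 (0.91, SE 0.11, adjusted p = 1.77e-05) and Ero1a (0.64, SE 0.09, adjusted p = 4.98e-05).

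Fibroblast markers moved in both directions with OGN. Of the 9 markers, 3 had positive and 6 negative estimates in CCL206 cells, and 2 and 7 in Epcam+ cells. In Epcam+ cells their sum was 2212 to 3112 CPM with vehicle and 2032 to 2571 with OGN. There 1 marker was called higher (Dcn, log2 1.14) and 2 were called lower (Col6a1, -0.64, and Col6a2, -0.83). The mean of Lox rose by 20.4 CPM in Epcam+ cells and by 142 CPM in CCL206 cells, so that the first was 14.3% of the second. For Plod2 this share was 15.6%, for Plod1 24.9% and for Plod3 48.9%, beside a median fibroblast marker level of 17.6% of CCL206 (15.2% to 22.6%). Among the markers, the mean of Dcn rose by 127 CPM in Epcam+ and 908 CPM in CCL206 cells (14.0%). Lum rose by 8.96 and 77.0 CPM (11.6%), whereas Col6a1 changed by -44.1 and -80.1 CPM. In bulk libraries a change in the number of cells of a type and a change of RNA per cell cannot be told apart, and the part of fibroblasts remaining in the fraction was not tested. Leukocyte markers also rose with OGN, from 464 to 513 CPM with vehicle to 712 to 872 CPM in Epcam+ cells (2 of 3 called), where Lyz2 is known to be made by alveolar type 2 cells too, and their part in the result was not tested.

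Over all 8 groups, each of the 9 genes had its lowest CCL206 group above its highest Epcam+ group without overlap. Genes without overlap were not counted over the whole table, so how common this is was not tested. By a different measure, with vehicle alone, 35.8% of all genes tested were called lower in Epcam+ cells. Within CCL206 cells, Plod2 was highest with OGN (180 ± 12.9 CPM), followed by EVs (122 ± 14.3), SFs (112 ± 4.0) and vehicle (88.4 ± 8.65), and only EVs and SFs overlapped. Plod1 had the same order, with 119 ± 10.5, 89.8 ± 13.3, 84.1 ± 3.18 and 73.6 ± 1.90 CPM, and the same single overlap between neighbours. Plod3 and Pcolce were instead highest with EVs, at 504 ± 41.9 and 1263 ± 197 CPM, in each case apart from the next group. Pcolce was lowest with OGN (823 ± 35.6), apart from vehicle (959 ± 65). For Loxl1, Loxl2, Loxl3 and Serpinh1, all neighbouring groups within a fraction overlapped.

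The OGN effect on Lox was smaller in Epcam+ than in CCL206 cells on the log2 scale by 0.74 (0.72 against 1.46), and that on Plod2 by 0.39. Because of how the genes were chosen, this difference is given without a test. The Epcam+ share of the CCL206 level of Lox was 39.9% with vehicle and 23.8% ± 2.19 with OGN (SD, n = 4).

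**Figure D4:**
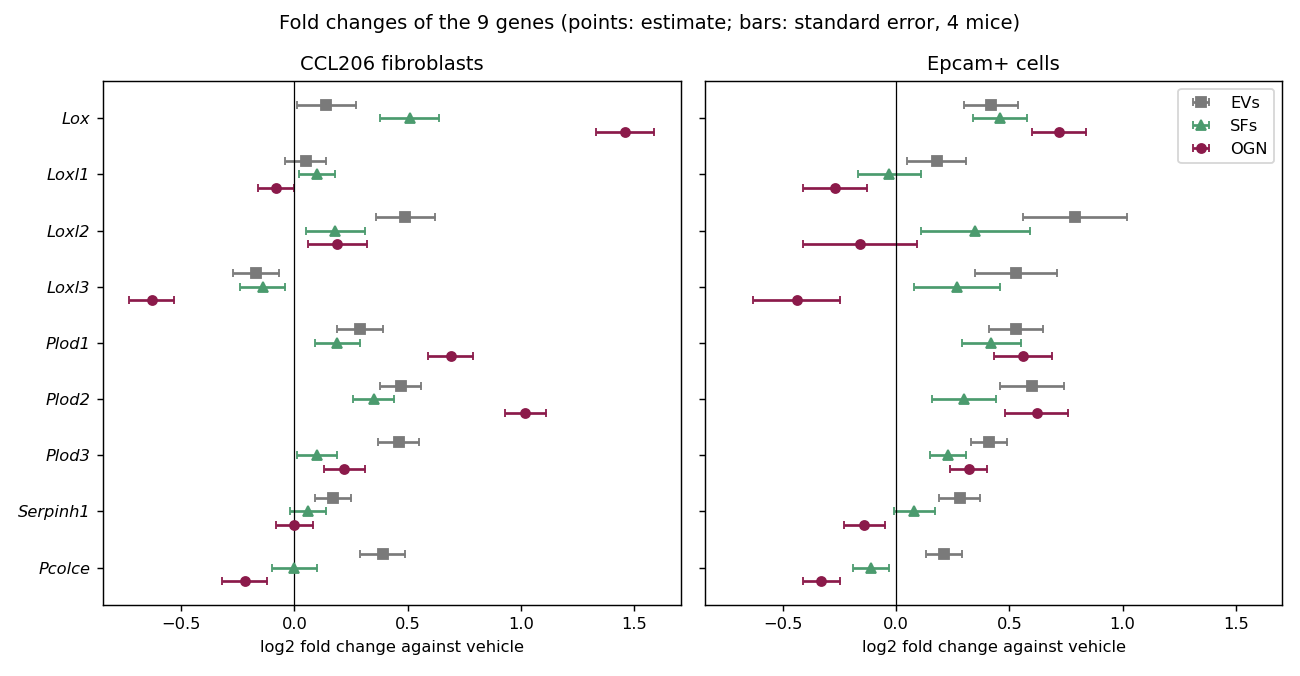
Log2 fold change against vehicle (x axis) of the 9 genes after EVs, SFs or OGN, in CCL206 fibroblasts and Epcam+ cells. Points are estimates and bars SE from a fit over 16 libraries per fraction. Lox with OGN lies at 1.46 in CCL206 and 0.72 in Epcam+ cells, and with EVs at 0.14 and 0.42.

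With EVs in CCL206 cells, the lysyl hydroxylases, Loxl2 and Pcolce were higher than with vehicle, and Lox was not called. The 3 treatments share their vehicle libraries. With EVs 5 of 9 genes were called higher and 0 lower, where 19.8% of all genes were higher and 16.2% lower. Plod3 had 461.9, 549.0, 476.0 and 530.2 CPM with EVs, above all vehicle libraries (log2 0.46, SE 0.09, adjusted p = 0.00425). Plod2 had 127.2, 130.6, 128.2 and 100.2 CPM, also above all vehicle libraries (log2 0.47, SE 0.09, adjusted p = 0.00425). Plod1 overlapped with vehicle, at 75.1 to 106.7 CPM (log2 0.29, SE 0.10, adjusted p = 0.0394).

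Pcolce had 1010.0, 1387.4, 1206.1 and 1446.7 CPM with EVs in CCL206 cells and overlapped with vehicle in mouse 1 only (log2 0.39, SE 0.10, adjusted p = 0.00874). Loxl2 had 28.7 to 45.6 CPM (log2 0.49, SE 0.13, adjusted p = 0.0132). All 5 called genes were higher in 4 of 4 cultures. Lox was split by culture, with 102.0 and 119.5 CPM in mice 1 and 3 and 66.2 and 72.0 CPM in mice 2 and 4, above and below vehicle (log2 0.14, SE 0.13, adjusted p = 0.431). Loxl1 (0.05), Loxl3 (-0.17) and Serpinh1 (0.17) were not called.

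These libraries differed in another property. The Spearman correlation of a library's relative level with transcript length was -0.289, -0.584, -0.364 and -0.623 in EV-treated CCL206 libraries of mice 1 to 4, and -0.288 to 0.330 in all others. The part of this trend in the results was not tested, and the calls changed when it was removed. After removal of the trend, or without the EV-treated CCL206 libraries of mice 2 and 4 (a setting added after the data were seen), 5 genes were called again, with Lox in place of Pcolce. The Pcolce fold change was 0.03 after removal of the trend. With only the 8 libraries compared, or without mouse 2, 0 of 9 were called.

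Of the other genes of collagen synthesis, 14 were higher with EVs in CCL206 cells, 2 of them of copper delivery, and 3 were lower. They included P4ha2 (log2 0.56, SE 0.09), P4hb (0.60, SE 0.12) and Col1a1 (0.48, SE 0.11) upward and Fn1 (-0.85, SE 0.26) downward. Of the HIF-1 response 12 of 17 were higher and 0 lower, with a median of 0.49. Of the leukocyte markers 2 of 3 were called higher with EVs, with sums of 135 to 184 CPM that overlapped with vehicle (77 to 149), and their part in the results was not tested.

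In Epcam+ cells all 3 lysyl hydroxylases rose with EVs. They were the only 3 of the 9 genes called, all higher, where 0.538% of all genes were called higher. Plod3 had 143.3, 169.0, 154.2 and 165.7 CPM, against 116.5 to 119.4 with vehicle (log2 0.41, SE 0.08, adjusted p = 0.0146). Plod2 had 34.7 to 45.4 CPM (log2 0.60, SE 0.14, adjusted p = 0.0364) and Plod1 29.2 to 38.4 CPM (log2 0.53, SE 0.12, adjusted p = 0.0395). None of the 3 overlapped with vehicle. The other 6 genes had positive estimates, from 0.18 for Loxl1 to 0.79 for Loxl2, and missed the threshold, Lox among them (0.42, SE 0.12, adjusted p = 0.118).

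Transcripts of fibroblasts were also higher in these Epcam+ libraries. The summed fibroblast markers were 3149 to 3741 CPM with EVs and 2212 to 3112 with vehicle, with positive estimates for all 9 markers and 4 of them called (Dcn, Lum, Col1a2 and Fn1). As a share of the CCL206 level, the markers had a median of 31.3% and the 9 genes 31.4%. Col1a1 (log2 0.54, SE 0.11, adjusted p = 0.0221) and Col3a1 (0.62, SE 0.13, adjusted p = 0.0165) were higher as well. The part of fibroblast transcripts in the rise of the lysyl hydroxylases was not tested. The calls ended without mouse 1, 2 or 3 and in a fit that ignored the mouse (0 of 9 in each), and without mouse 4 they were 5, with Lox and Serpinh1 added.

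Loxl3 was the only one of the 9 genes for which a difference of the EV effect between the fractions was called (1 of 9), where 23.8% of all genes were. It had 30.4, 28.3, 26.9 and 33.6 CPM with EVs against 21.1, 13.8, 18.6 and 27.3 with vehicle in Epcam+ cells, with higher values in 4 of 4 mice. In CCL206 cells it had 111.7, 117.9, 117.5 and 85.1 CPM with EVs, lower than with vehicle in all 4 cultures, although the ranges overlapped. The difference of the log2 fold changes, Epcam+ minus CCL206, was 0.73 (SE 0.21, adjusted p = 0.0182). Neither effect was called by itself (0.53, adjusted p = 0.239, and -0.17, adjusted p = 0.2). All 9 fibroblast markers also had positive differences of the EV effect, with 4 called higher and a median of 0.4. The difference was not called without mouse 2, without mouse 3, or without the EV-treated CCL206 libraries of mice 2 and 4.

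With SFs, 0 of 9 genes were called in either fraction by edgeR or DESeq2, beside 0.0599% of all genes called in CCL206 and 0.23% in Epcam+ cells. At an unadjusted p under 0.05, 2 of 9 were past in CCL206 and 4 of 9 in Epcam+ cells. Of all genes tested, 621 of 11689 and 913 of 11716 were past it. Lox in CCL206 cells had 106.8, 93.4, 141.3 and 125.1 CPM, each above all vehicle libraries (log2 0.51, SE 0.13, adjusted p = 0.498 by edgeR). Plod2 had 108.5 to 117.9 CPM and Plod1 81.4 to 88.1 CPM, again above all vehicle libraries (log2 0.35, SE 0.09, and 0.19, SE 0.10). Both Lox and Plod2 were called with only the 8 libraries compared or without the EV-treated libraries, and Lox after removal of the length trend.

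In Epcam+ cells with SFs, Lox had 35.7, 46.4, 46.3 and 54.3 CPM, which overlapped with vehicle although it was higher in 4 of 4 mice (log2 0.46, SE 0.12, adjusted p = 0.206). Plod1 had 28.6 to 33.8 CPM, above all vehicle libraries (log2 0.42, SE 0.13, adjusted p = 0.341). The remaining genes had estimates between -0.11 for Pcolce and 0.35 for Loxl2. The fibroblast markers had positive estimates for all 9, with 0 called and a median of 0.25. A difference of the SF effect between fractions was called for none of the genes (0 of 9, with 0.0% of all genes called by edgeR). At an unadjusted p under 0.05 there were 0 of 9, and 590 of all 11805 genes. The interval of the difference for Lox ran from -0.39 to 0.33.

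The genes whose pattern over the 16 CCL206 libraries was most like that of Lox, by Pearson's r of log2 CPM after subtracting each culture's mean, were C1s1 (0.984), Ero1a (0.984), Adamts7 (0.978), Nab1 (0.978) and Itga5 (0.976). For Plod2 they were Ankrd37 (0.982), Cp (0.975), Steap4 (0.974), Ak4 (0.973) and Fgf7 (0.969). Ero1a and Ankrd37 belong to the HIF-1 list above. The closest to Serpinh1 were Gm13461 (0.956), Gm4366 (0.951), Ckap4 (0.921), Eef1a1-ps1 (0.917) and Rps7-ps3 (0.916), several of them pseudogenes whose reads may be shared with their parent gene. The 16 libraries fall into 4 treatments and share cultures, so r is a description of likeness. They include the OGN libraries used in the choice of genes, and a link of these patterns with HIF-1 was not tested.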

How the data were processed

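Bulk RNA was measured in 32 libraries, from the Epcam+ and the CCL206 fraction of each culture. The authors deposited raw counts per gene, not normalized, for 11818 genes. Reads had been trimmed with Trimmomatic 0.30, and the submitters' processing notes also name DESeq2 1.34.0. The notes name GRCm39 and the study's methods GRCm38, and the aligner, counting program and annotation release are not given in the sources used here. Positions and promoters are from RefSeq on GRCm38.p6.

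Counts were filtered with filterByExpr, normalized by TMM and tested with edgeR's quasi-likelihood test (edgeR 4.0.16, limma 3.58.1, R 4.3.3) on 16 libraries per fraction with mouse and treatment in the model. Differences between treatment effects used all 32 libraries with mouse within fraction, and fractions were compared over the 8 vehicle libraries. P values were adjusted by Benjamini-Hochberg over all genes, and 0.05 was the threshold. The SE was derived as the size of a log2 fold change over the root of its F statistic. Log2 CPM used a prior count of 2. Transcript lengths came from GENCODE and were matched to 11691 genes (98.9%). Likeness of patterns was ranked by Pearson's r, and the 5 closest genes were listed. The fits were tested on simulated data. Figures were drawn with matplotlib 3.10.9 in Python 3.11.15.

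Depth was between 1805914 and 17675454 counts, with a median of 5901652, and counting error is largest for Loxl2. Replicates are separate mice in the Epcam+ fraction and separate cultures of 1 line in the CCL206 fraction. In all 48 replicate pairs the counts differed by more than sampling noise (chi-square of at least 2.98 per degree of freedom). The labels' mouse number names the animal, and libraries of the same mouse deviated together on average in each treatment, so the mouse was kept as a block. Between TMM and DESeq2's size factors, the mean scaling of a treatment group relative to vehicle differed by at most 0.0118 log2 units. Alternatives were DESeq2 1.42.0, size factors of DESeq2, no filter, at least 10 counts in every library, only the libraries compared, no mouse term, removal of the length trend, leaving out EV-treated libraries and leaving out each mouse. The genes, lists and tests were chosen with earlier results of these data known. All 10 listed genes and genes of the collagen, HIF-1 and marker lists could be named. No differential expression values of the authors were used.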

Additional observations from a re-analysis of the deposited data

Results flagged for a closer look

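Among 72 combinations of gene and group, 4 values, in 3 libraries, stood far from the other 3 of their group, and chance gives about 1 in 20 such cases. They were Loxl1 in the OGN-treated Epcam+ library of mouse 2 (26.2 CPM), Loxl3 in the vehicle-treated CCL206 library of mouse 4 (112.0 CPM), and Loxl3 (85.1 CPM) and Plod2 (100.2 CPM) in the EV-treated CCL206 library of mouse 4, which is also the library with the most negative correlation with transcript length.

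The EV effect on Loxl3 differed between fractions by 0.73 on the log2 scale in the test given above. That test called 1 of the 9 genes and 23.8% of all genes. In normalized log2 CPM without a test, Loxl3 was lower with EVs in all 4 CCL206 cultures (mean -0.18) and higher in all 4 Epcam+ cultures (by 0.30 to 1.03).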

How the results depend on the processing

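Lox with OGN in Epcam+ cells and the lower level of all 9 genes in Epcam+ cells with vehicle were called under every alternative run (12 and 8). The result for Lox is not independent of the choice of genes, as stated above. The number of genes called changed as follows. With only the 8 libraries compared it was 1 for OGN in Epcam+ cells, 0 for EVs in CCL206 cells and 2 for SFs in CCL206 cells. Without the EV-treated libraries it was 3 for OGN in Epcam+ cells and 2 for SFs in CCL206 cells, and removal of the length trend gave 1 for SFs in CCL206 cells. Without the block for mouse (the pairing), EVs in Epcam+ cells had 0 calls and no other count changed by over 1.5 times. The difference of EV effects had 0 calls without the EV-treated CCL206 libraries of mice 2 and 4. Leaving out each mouse gave 0 to 5 calls for EVs in Epcam+ cells, 1 to 4 for OGN in Epcam+ cells, 0 to 4 for EVs in CCL206 cells and 0 to 1 for the difference of EV effects. The causes were not tested.

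Direction changed for 19 fold changes, none called, with these values. Without mouse 1 they were Loxl1 (0.01) with SFs in Epcam+ cells, Pcolce (-0.03) with SFs in CCL206 cells and the SF difference of Loxl1 (0.00). Without mouse 2 they were Serpinh1 (-0.01) with SFs in Epcam+ cells, Pcolce (-0.01) with SFs in CCL206 cells and the SF differences of Loxl2 (-0.10) and Serpinh1 (-0.07). Without mouse 3 they were Lox (0.00) with EVs in CCL206 cells and the SF differences of Lox (0.07) and Plod2 (0.02). Without mouse 4 they were Loxl1 (0.03) with SFs and Loxl2 (0.11) with OGN in Epcam+ cells and the SF difference of Lox (0.01). Pcolce with SFs in CCL206 cells was 0.00 with only 8 libraries, 0.00 with at least 10 counts and -0.02 after removal of the length trend, which also gave EV differences of -0.05 for Plod1 and 0.20 for Pcolce. Without the EV-treated CCL206 libraries of mice 2 and 4 the EV difference of Plod3 was 0.08. Over all mice left out, these fold changes ran from -0.09 to 0.03 (Loxl1) and from -0.01 to 0.18 (Serpinh1) with SFs in Epcam+ cells, from -0.41 to 0.11 (Loxl2) with OGN in Epcam+ cells, and from 0.00 to 0.26 (Lox) with EVs in CCL206 cells. The SF differences ran from -0.19 to 0.07 (Lox), -0.21 to 0.00 (Loxl1), -0.10 to 0.46 (Loxl2), -0.11 to 0.02 (Plod2) and -0.07 to 0.15 (Serpinh1). Depth limits Loxl2 most, with 10 counts in its lowest library.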
